A study of Mus musculus with 5 samples.

Results

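The 10 type I interferon response genes, Isg15, Ifit1, Ifit2, Ifit3, Rsad2, Oasl2, Mx1, Cmpk2, Usp18 and Irf7, were followed across the cell lineages of mouse hearts. They were chosen by symbol, and all 10 were found among the 31053 genes of the count matrices. The study compared hearts of control mice (Ctla4+/+Pdcd1-/-, 4 mice) with hearts of mice carrying a single working copy of Ctla4 (Ctla4+/-Pdcd1-/-, 10 mice), the latter as a model of myocarditis under immune checkpoint inhibition. Both groups therefore lack Pdcd1, and no group with Pdcd1 was included. Digested hearts were pooled, living nucleated cells were sorted as DRAQ5+DAPI-, and the cells went into 2 control libraries (replicates 1 and 2) and 3 disease libraries (replicates 3, 4 and 5) of 10x Genomics 5-prime single-cell RNA sequencing. The sample labels read Pdcd2-/- for replicates 2 and 4 and Pdcd3-/- for replicate 5, while the series description gives Pdcd1-/- for both groups. The grouping rests on the Ctla4 part of the labels. Which mice went into which library, the strain, age and batch are not given in the sources used here, so p-values measure the spread between libraries of pooled hearts.

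Type I interferons are secreted when a cell senses viral or displaced nucleic acid. They bind a receptor made of Ifnar1 and Ifnar2, whose kinases Jak1 and Tyk2 activate a transcription factor complex, with Stat2 and Irf9 among its parts, that binds a sequence element in the promoters of the response genes. Interferon gamma acts through another receptor, and some response genes answer to both. Of the 10 genes, Isg15 encodes a ubiquitin-like protein and Usp18 the protease that removes it, which also dampens signalling at the receptor. Ifit1, Ifit2 and Ifit3 encode proteins that bind foreign RNA or the proteins that do so. Rsad2 encodes viperin, an antiviral radical enzyme, and its neighbour Cmpk2 a nucleotide kinase that supplies it. Oasl2 belongs to the oligoadenylate synthetase family, Mx1 is an antiviral GTPase, and Irf7 is the transcription factor that amplifies interferon production.

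The promoters of the genes on which the results turn are shown because the element that the activated complex binds is short and can be read directly. RefSeq promoters of GRCm38.p6 were matched by symbol for 8 of the 10 genes; Mx1 and Usp18 had none. Each line gives the 150 bases from 200 to 51 before the start, written 5′ to 3′ on the gene's strand. Capitals mark matches to the motif GAAA, any 2 bases (NN), GAAA, searched on both strands (it reads TTTC, NN, TTTC on the other), overlapping matches included. Ifit3b is shown beside Ifit3 as its close copy.
Isg15 (chr4:156200869-156201018, minus strand): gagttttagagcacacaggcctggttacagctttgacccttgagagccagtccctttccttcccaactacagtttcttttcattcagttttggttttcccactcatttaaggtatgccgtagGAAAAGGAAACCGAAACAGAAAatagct
Ifit1 (chr19:34640689-34640838, plus strand): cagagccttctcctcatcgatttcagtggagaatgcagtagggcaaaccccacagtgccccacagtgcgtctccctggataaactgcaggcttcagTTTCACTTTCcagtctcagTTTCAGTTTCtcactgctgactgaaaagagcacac
Ifit3 (chr19:34583329-34583478, plus strand): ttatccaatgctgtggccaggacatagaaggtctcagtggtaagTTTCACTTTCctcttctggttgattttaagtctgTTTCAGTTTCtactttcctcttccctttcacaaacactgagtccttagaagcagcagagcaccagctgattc
Ifit3b (chr19:34607757-34607906, plus strand): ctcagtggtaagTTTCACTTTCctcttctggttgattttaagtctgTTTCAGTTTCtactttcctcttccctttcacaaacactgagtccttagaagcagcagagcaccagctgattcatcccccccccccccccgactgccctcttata
Rsad2 (chr12:26456503-26456652, minus strand): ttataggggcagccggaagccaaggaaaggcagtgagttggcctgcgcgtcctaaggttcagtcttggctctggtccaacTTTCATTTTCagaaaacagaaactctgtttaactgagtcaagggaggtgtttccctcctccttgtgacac
Cmpk2 (chr12:26469015-26469164, plus strand): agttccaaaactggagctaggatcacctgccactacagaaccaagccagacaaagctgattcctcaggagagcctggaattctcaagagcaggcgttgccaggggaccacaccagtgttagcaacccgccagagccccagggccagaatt
Isg15 held 3 matches, which began 78, 72 and 66 bases before its start and ran into each other. Ifit1 held 2, beginning 104 and 85 bases before the start, and Ifit3 held 2, at 156 and 122. Rsad2 held 1 match at 120. No match was found in the 300 bases searched (250 before to 50 after the start) of Ifit2, Oasl2, Cmpk2 and Irf7, which says only that these letters are not in that window. In all, 4 of the 8 genes (50%) held the motif, against 14 of 31 other type I response genes (45.2%) and 1079 of all 27025 genes with a promoter (3.99%). Ifit3b held 2 matches, at 188 and 154. Ifit3 and Ifit3b (chr19:34607970-34613401) are near-identical copies, and reads may have been divided between them in counting, so Ifit3 values are uncertain to that extent. The strand setting of the counting is not given in the sources used here.

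The libraries held between 24991704 and 55053988 deposited unique molecular identifiers (UMIs, each standing for 1 captured RNA molecule), and 38312 cells passed the filters in all (5588 to 9950 a library). Cells were gated into lineages by UMIs of marker genes, and 6 lineages with at least 50 cells in every library were tested: endothelial, fibroblast, mural, monocyte/macrophage, T and B. In each gate its own markers had the highest summed level, although the mural gate also held endothelial markers at 1823 CPM (UMIs of a gene scaled to the same total in every sum), against 6797 in the endothelial gate. Cardiomyocyte genes reached 1059 CPM in the endothelial gate, 451 in the mural gate and 73.9 to 165 CPM in the fibroblast and monocyte/macrophage gates, although these cells should lack them. Between 86 and 161 barcodes were shared by a pair of libraries, at most 1.9% of the smaller one. T cells made up 5.98 and 1.45% of the control and 2.11, 23.3 and 7.42% of the disease libraries, the highest share being in disease replicate 4. Pdcd1 was read in T cells of all 5 libraries, at 581 and 69 CPM in control and 264, 1054 and 831 CPM in disease. Ctla4 stood there at 426 and 82.8 CPM in control and 159, 648 and 551 CPM in disease. Whether the 5-prime tags lie in the deleted parts of these genes is not given in the sources used here, so they do not check the labels.

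Among the 6 tested lineages, by mean level over the libraries, 8 of the 10 genes were highest in endothelial or mural cells, the cells of vessel walls. Oasl2 was highest in fibroblasts and Mx1 in monocytes/macrophages. B cells had the lowest mean level of these 6 lineages for 8 genes, while Cmpk2 was lowest in T cells and Mx1 in mural cells. Levels are given in CPM over all cells of a lineage in a library, in the order of replicates 1 and 2 for control and 3, 4 and 5 for disease, and a difference between lineages is the log2 fold change of a lineage over the mean of the other 5 in edgeR, with the library as a block and 13031 genes tested at an adjusted p of 0.05. In the endothelial gate 9 of the 10 genes were higher than in the mean of the other lineages, where 36.2% of all genes tested were higher, and 1 (Mx1) was lower, where 29.6% were. The mural gate, which holds pericytes and smooth muscle cells, had 7 higher and 0 lower (24.3 and 25.1% of all genes), and Mx1 was not among the 7. The monocyte/macrophage gate had 6 higher and 2 lower (32.3 and 30.7%), and the fibroblast gate 3 higher and 2 lower (38.1 and 32%). T cells had 1 higher and 8 lower (35.9 and 30.4%), and B cells 0 higher and 9 lower (24.2 and 28.5%). With plain library totals in place of TMM scaling, the median of all genes moved by 0.43 in mural and -0.42 in B cells and by -0.31 to 0.27 in the other lineages. The counts of higher genes were then 9, 4, 9, 4, 1 and 0 in endothelial, fibroblast, mural, monocyte/macrophage, T and B cells. Levels of one lineage are thus relative to the scaling, most of all in mural and B cells.

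**Figure D1:**
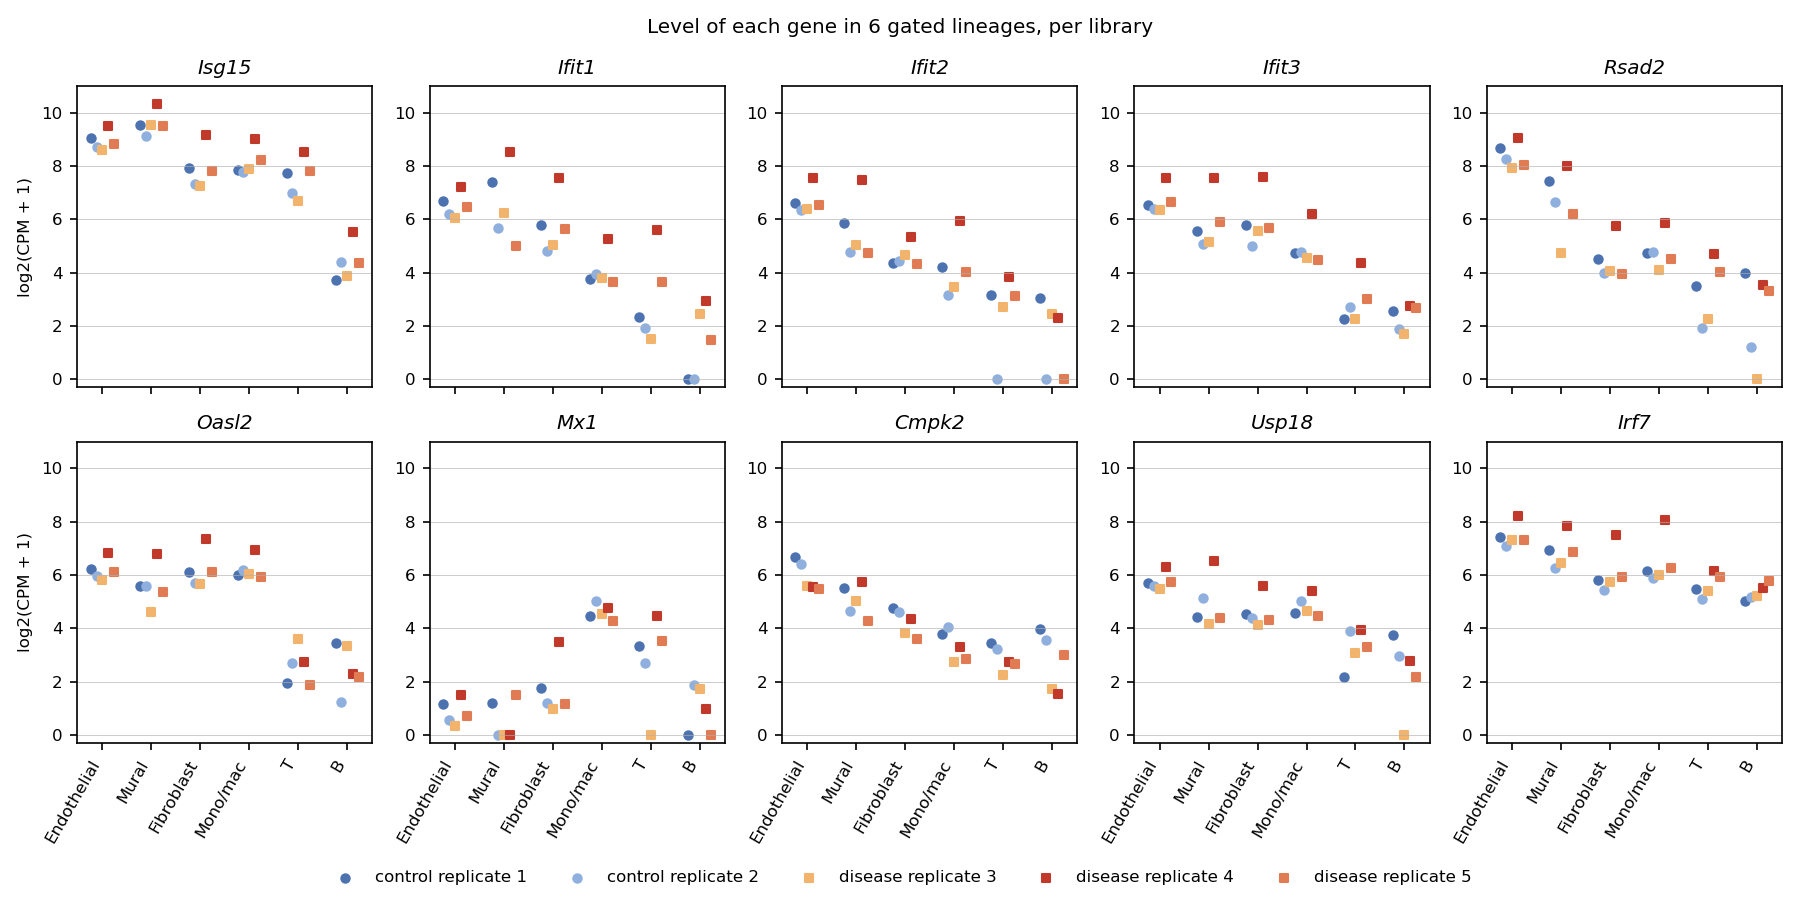
Level of each of the 10 genes as log2(CPM + 1), 1 panel a gene, in the 6 tested lineages; each point is a library (circles control, squares disease). Most panels fall from endothelial and mural cells on the left to B cells on the right, Mx1 peaks in monocytes/macrophages, and disease replicate 4 is the highest point in most columns.

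Isg15 (chr4:156199424-156200818, minus strand) was read in every tested lineage. In mural cells it stood at 740 and 557 CPM in control and 745, 1298 and 715 CPM in disease. In endothelial cells it stood at 535 and 416 CPM and at 386, 732 and 451 CPM. The mural level was above the endothelial level in 5 of 5 libraries. Isg15 exceeded the mean of the other lineages by 1.77 (log2; SE 0.11, adjusted p = 2.45e-15, edgeR) in mural and by 1.14 (SE 0.11, adjusted p = 3.88e-11) in endothelial cells. Monocytes/macrophages (218 to 510 CPM over the libraries) and fibroblasts (153 to 577 CPM) overlapped, with the former higher in 3 of 5 libraries. T cells held 103 to 363 CPM and differed from the mean of the other lineages by 0.10 (SE 0.12, adjusted p = 0.477, edgeR), which does not show that the levels were equal. B cells held 12.3 to 45.3 CPM of Isg15, a difference of -3.56 (SE 0.18, adjusted p = 3.85e-17, edgeR).

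Usp18, the protease of the same protein-tagging system, (chr6:121245906-121270917, plus strand) was higher in endothelial cells and monocytes/macrophages and lower in T and B cells. It ranged from 43 to 76.9 CPM in endothelial cells, where it was 1.55 higher (SE 0.13, adjusted p = 6.88e-12, edgeR) than the mean of the others. Mural cells held 17 to 91.2 CPM and monocytes/macrophages 20.9 to 41.1 CPM, the former higher in 2 of 5 libraries. T cells held 3.46 to 14.2 CPM, a difference of -1.12 (SE 0.22, adjusted p = 3.27e-05, edgeR). The scaling mattered for Usp18, which was also higher in fibroblasts (0.38, adjusted p = 0.0239) and mural cells (0.91, adjusted p = 0.00354) with plain totals, and in neither with TMM scaling in edgeR (0.19 and 0.45, adjusted p = 0.252 and 0.12). Leaving out control replicate 2 also gave a call in fibroblasts (0.37, adjusted p = 0.0413, edgeR), and leaving out control replicate 1 one in mural cells (0.60, adjusted p = 0.045).

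The 3 Ifit genes lie in 1 stretch of chromosome 19, with Ifit3b between Ifit3 and Ifit1, Ifit2 at chr19:34550694-34576419, Ifit3 at chr19:34583531-34588731 and Ifit1 at chr19:34640871-34650009 (GENCODE coordinates, GRCm38, all plus strand and protein coding), and their orders of lineages differed. Ifit2 stood at 97.5 and 80.8 CPM in control and 83.5, 184 and 93 CPM in disease endothelium, and was above mural cells in 5 of 5 libraries. Ifit1 stood at 102 and 72 CPM in control and 65.5, 146 and 87.4 CPM in disease endothelium. Mural cells exceeded this in 3 of 5 libraries (31.1 to 365 CPM), so the order of those neighbours is not settled. In fibroblasts Ifit1 ran from 27.1 to 184 CPM, Ifit3 from 31.3 to 191 CPM and Ifit2 from 19.1 to 39.3 CPM, each highest in disease replicate 4. Ifit1 and Ifit3 were higher in fibroblasts than in the mean of the other lineages by 1.16 (SE 0.23, adjusted p = 4.23e-05, edgeR) and 1.33 (SE 0.13, adjusted p = 6.2e-11), while Ifit2 differed by 0.25 (SE 0.21, adjusted p = 0.299). In endothelial cells the 3 differences were 2.03 (Ifit1), 2.70 (Ifit2) and 2.17 (Ifit3), with SEs of 0.22, 0.17 and 0.12. Ifit1 was lower in monocytes/macrophages (-0.71, SE 0.31, adjusted p = 0.0471, edgeR). That call was lost without control replicate 1 (-0.61, adjusted p = 0.0796) or disease replicate 3 (-0.72, 0.0903), 4 (-0.47, 0.342) or 5 (-0.68, 0.076), and with a stricter gate (-0.74, 0.0518). Its lower level in T cells (-0.85, adjusted p = 0.0304, edgeR) was lost without control replicate 1 (-0.58, 0.127) or disease replicate 3 (-0.75, 0.0902), and with the stricter gate (-0.76, 0.0635).

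Rsad2 had the largest endothelial difference of the 10 genes. It stood there at 403 and 310 CPM in control and 245, 529 and 261 CPM in disease. Mural cells held 25.5 to 256 CPM, below the endothelial level in 5 of 5 libraries. Fibroblasts, in which Ifit1 and Ifit3 were higher than in the mean of the others, held Rsad2 at 21.8 and 14.8 CPM in control and 15.7, 53.4 and 14.4 CPM in disease. The endothelial difference was 3.71 (SE 0.14, adjusted p = 3.8e-21, edgeR) and the fibroblast difference -1.01 (SE 0.19, adjusted p = 2.22e-05). Rsad2 (chr12:26442746-26456452, minus strand) and Cmpk2 (chr12:26469204-26479837, plus strand) point away from each other, with starts 12752 bases apart. Cmpk2 was also highest in endothelium (43.5 to 102 CPM; difference 2.13, SE 0.11, adjusted p = 1.58e-17, edgeR). It did not share the low fibroblast level of its neighbour (0.09, SE 0.13, adjusted p = 0.568, edgeR). In mural cells Cmpk2 was higher (0.80, adjusted p = 0.00171, edgeR), a call lost with the stricter gate (0.26, adjusted p = 0.414), as was that of Ifit2 there (1.35 against 0.70, adjusted p = 0.089).

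Oasl2 (chr5:114896936-114912234, plus strand) was shared by 3 lineages and Mx1 (chr16:97447035-97462907, minus strand) was highest in monocytes/macrophages. Oasl2 stood at 68.3 and 50.5 CPM in control and 50.1, 161 and 68.7 CPM in disease fibroblasts, at 59.5 to 122 CPM in monocytes/macrophages and at 55.2 to 112 CPM in endothelial cells. These 3 lineages overlapped. Fibroblasts exceeded monocytes/macrophages in 3 of 5 libraries, and monocytes/macrophages exceeded endothelial cells in 3 of 5. Endothelial cells were above mural cells in 5 of 5. In mural cells the higher level of Oasl2 (0.67, adjusted p = 0.00691, edgeR) was lost without disease replicate 4 (0.50, adjusted p = 0.076). Oasl2 exceeded the mean of the other lineages by 1.97 (SE 0.13, adjusted p = 1.1e-14, edgeR) in monocytes/macrophages and differed from it in T cells by -3.08 (SE 0.25, adjusted p = 2.68e-12). Mx1 stood at 21 and 31.5 CPM in control and 22.4, 26.3 and 18.4 CPM in disease monocytes/macrophages, the control and disease libraries overlapping. In endothelial cells it never passed 1.8 CPM, from 2 to 12 UMIs a library. Mx1 was higher in monocytes/macrophages by 3.83 (SE 0.28, adjusted p = 1.5e-13, edgeR) and in T cells by 2.58 (SE 0.38, adjusted p = 5.12e-07). T cells held Mx1 at 9.13 and 5.52 CPM in control and 0, 21 and 10.4 CPM in disease. These levels came from 29 and 2 UMIs in control and 0, 222 and 31 UMIs in disease. Its lower endothelial level (-2.36, SE 0.77, adjusted p = 0.00776, edgeR) was not called without control replicate 1 (adjusted p = 0.056) or disease replicate 5 (0.0651).

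Irf7 (chr7:141262706-141266481, minus strand) was read in all 6 lineages. Endothelial cells held it at 172 and 134 CPM in control and 156, 296 and 159 CPM in disease, above mural cells (74.7 to 225 CPM) in 5 of 5 libraries. B cells held 31.9 and 34.8 CPM in control and 36.2, 44.4 and 53 CPM in disease. The B-cell difference was -0.83 (SE 0.21, adjusted p = 0.00141, edgeR), the smallest in size of the 9 lower genes there. In monocytes/macrophages the higher level of Irf7 (0.42, SE 0.14, adjusted p = 0.00775, edgeR) was lost without disease replicate 4 (0.09, adjusted p = 0.414) and with plain totals (0.26, adjusted p = 0.0999), as was that of Ifit3 (0.42 against 0.27, adjusted p = 0.117). In mural cells plain totals gave a call of higher Irf7 (0.69, adjusted p = 0.00105, edgeR) where TMM scaling gave none (0.25, adjusted p = 0.231). The lower level in fibroblasts (-0.43, adjusted p = 0.00734, edgeR) was lost without control replicate 2 (-0.31, adjusted p = 0.127) and with plain totals (-0.24, adjusted p = 0.121).

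The gates with too few cells for a test are given as levels only. Neutrophils (20 to 70 cells a library) held Isg15 at 1964 and 752 CPM in control and 950, 1671 and 959 CPM in disease, and Oasl2 at 25.9 to 356 CPM. No neutrophil library held a UMI of Ifit2 or Mx1. Schwann cells of the cardiac nerves (19 to 42 cells) held Ifit3 at 332 and 863 CPM in control and 120, 1097 and 114 CPM in disease, from 6 to 55 UMIs. Ifit1 there ran from 57 to 932 CPM, while Rsad2 had 0 to 2 UMIs. Disease replicate 4 was the highest and disease replicate 5 the lowest for both Ifit genes, in few cells. Conventional dendritic cells (5 to 51 cells) held Mx1 at 0 to 34.7 CPM and 1 UMI of Cmpk2 over all 5 libraries. NK cells (10 to 45 cells) held Isg15 at 93.8 and 238 CPM in control and 184, 269 and 446 CPM in disease, from 5 to 46 UMIs, with overlapping groups and disease replicate 5 the highest. Irf7 there ran from 39.7 to 99.6 CPM, the other 8 genes had 0 to 4 UMIs a library, and Ifit2 and Cmpk2 had 0 in all 5. The plasmacytoid dendritic gate held 1 cell in each of disease replicates 4 and 5 and 0 elsewhere, and no level is given for it.

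The share of cells holding several of the genes at once differed between lineages and libraries, as a description. After 1000 UMIs had been drawn from every cell, those still holding at least 3 of the 10 genes were counted. Cells with fewer than 1000 UMIs were left out: 46 and 187 control and 77, 209 and 172 disease cells in endothelium, and 0 to 67 a library in the other lineages. In endothelium 2632 and 2418 control and 2311, 1840 and 2907 disease cells were used. In endothelium these were 11.8 and 8.85% of control cells and 7.7, 19.9 and 9.29% of disease cells. In fibroblasts the share was 2.57 and 1.27% in control and 1.39, 9.33 and 2.39% in disease. In monocytes/macrophages it was 2.22 and 2.28% in control and 1.24, 6.3 and 1.63% in disease. Disease replicate 4 was the highest in both, and the other disease libraries overlapped the controls or lay below them. Mural cells had 6.15 and 3.49% in control and 2.74, 20.7 and 2.08% in disease, of 58 to 130 cells. Without thinning the endothelial shares were 39.8 and 31% in control and 29.3, 40.1 and 29.6% in disease, disease replicate 4 and control replicate 1 then being close. Endothelial cells of disease replicate 4 had the lowest median depth, 2284 UMIs against 2651 to 3144 in the other libraries. In B cells 0 of 115, 259, 146, 400 and 195 cells held 3 of the genes at this depth. A count of 0 in 400 allows a share of up to 0.75% at this depth, which is 3 counts of 400. The upper end of the 95% Wilson interval is 0.951%. Without thinning 0.847 and 0.38% of control and 0, 0.241 and 0% of disease B cells held at least 3.

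**Figure D2:**
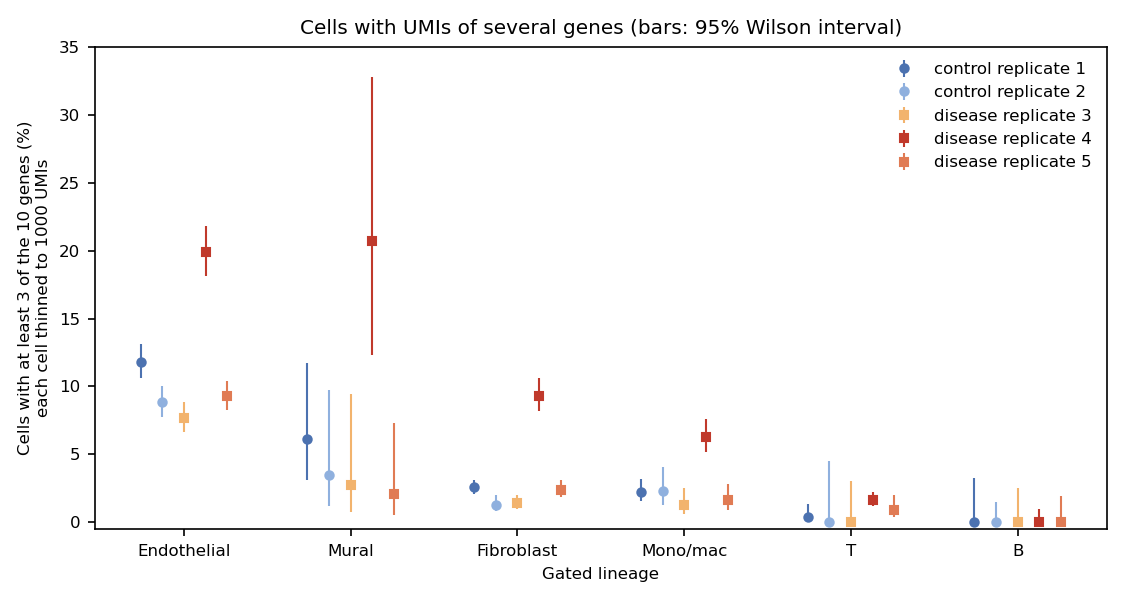
Share of cells with UMIs of at least 3 of the 10 genes, in percent, each cell thinned to 1000 UMIs; points are libraries and bars 95% Wilson intervals, which cover counting error only. Endothelial cells lie between 7.7 and 19.9%, B cells at 0, and disease replicate 4 is the highest library in every lineage but B cells.

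In T cells Isg15 was found more often than several of the genes together. A UMI of Isg15 was found in 19.1 and 12.3% of control and 5.69, 25 and 17.9% of disease T cells at 1000 UMIs. At least 3 of the genes were found in 0.364 and 0% of control and 0, 1.64 and 0.877% of disease T cells. At least 2 were found in 2 and 2.47% of control and 0.813, 6.08 and 3.16% of disease T cells, so most T cells with Isg15 held no second gene of the 10 at this depth. The same was seen in monocytes/macrophages of 4 libraries. Isg15 was found there in 16.2 and 14.9% of control and 15.9, 29.6 and 16.1% of disease cells. At least 2 of the genes were found in 6.67 and 6.43% of control and 6.54, 18.1 and 6.78% of disease cells. Disease replicate 4 is undecided by these shares, because cells with at least 2 genes need not hold Isg15. As a lineage with little of the gene, B cells held Isg15 in 0.87 to 3.5% of cells; median depths before thinning were 3767 to 4908 UMIs in T and 2333 to 3074 in B cells. Unthinned, the Isg15 shares were 29.3 to 52.5% in T and 3.39 to 8.19% in B cells. The Isg15 share in T cells was above that in B cells of the same library in 5 of 5 libraries. Mx1 was found in 0.0433 to 0.19% of endothelial cells and in 1.76 to 2.7% of monocytes/macrophages.

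Within the endothelial gate, cells with a UMI of a vessel-type marker were set against those without, as a description; the markers were picked after earlier results had been seen. Cells with Gja5, a gap-junction gene of arterial endothelium, numbered 33 to 54 a library. Their Isg15 stood at 1158 and 916 CPM in control and 839, 1539 and 928 CPM in disease, against 520 and 401 CPM and 372, 712 and 438 CPM in the remaining endothelial cells. Isg15 was higher with Gja5 in 5 of 5 libraries, and so were Ifit1 and Oasl2. Rsad2 went the other way, at 186 and 293 CPM in control and 127, 256 and 178 CPM in disease, lower than in the remaining cells in 5 of 5 libraries. Cells with Vwf, a clotting-factor gene of veins and large vessels, also had less Rsad2 in 5 of 5 libraries. It stood there at 145 and 81.5 CPM in control and 55.4, 209 and 103 CPM in disease. Isg15, Ifit2, Ifit3, Usp18, Irf7 and Mx1 were higher with Vwf in 0 of 5 libraries, so Isg15 went against its direction with Gja5. Cmpk2 was higher with Vwf in 1 library, Ifit1 in 3 and Oasl2 in 5. Cells with Car4, a capillary marker, had more Rsad2 in 5 of 5 and less Isg15 in 5 of 5 libraries. The Gja5 cells had more UMIs a cell than the others (medians of 2936 to 4490 against 2265 to 3132), whose part in these values was not tested. Cells with Cxcl10, an interferon-induced chemokine, were higher in 9 of the 10 genes in 5 of 5 libraries, Mx1 being higher in 2 of 5.

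**Figure D3:**
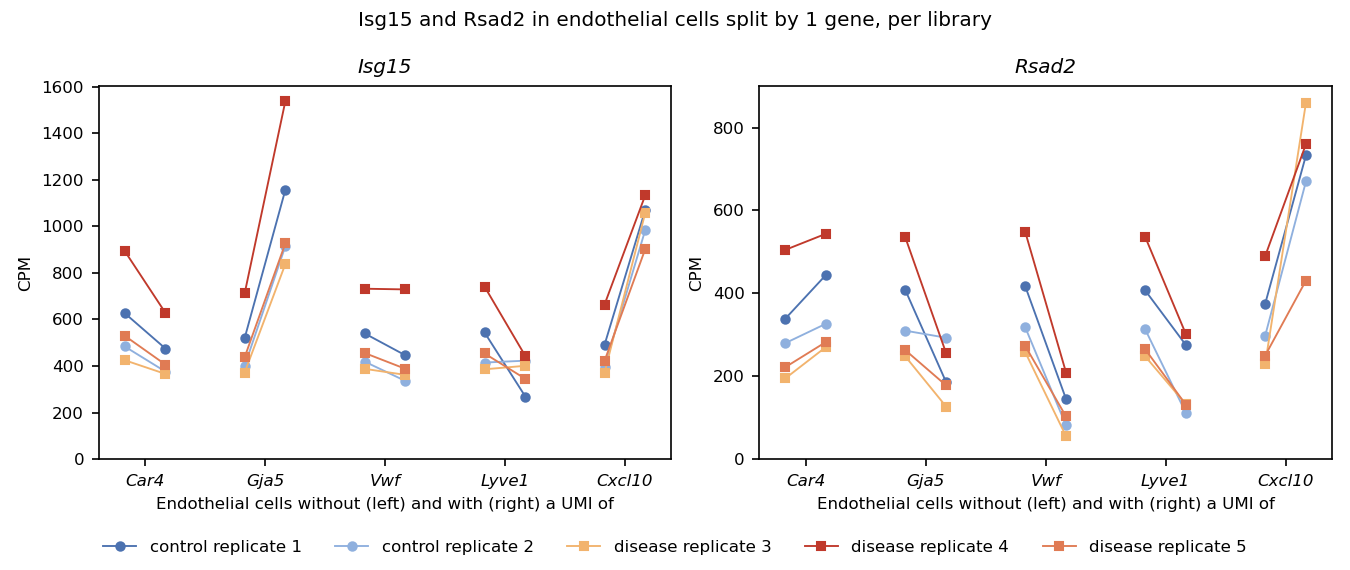
Isg15 (left) and Rsad2 (right) in CPM in endothelial cells without and with a UMI of Car4, Gja5, Vwf, Lyve1 or Cxcl10; each line joins both values of a library. Isg15 rises and Rsad2 falls from cells without to cells with Gja5 in all 5 libraries, and both rise with Cxcl10.

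The same kind of split was made in other lineages. Fibroblasts with a UMI of Cxcl9, a chemokine induced by interferon gamma, numbered 12 to 374 and had more Rsad2, Isg15, Usp18 and Irf7 in 5 of 5 libraries. Their Rsad2 stood at 90.1 and 298 CPM in control and 127, 79.6 and 25.5 CPM in disease. Over all fibroblasts it was 21.8 and 14.8 CPM in control and 15.7, 53.4 and 14.4 CPM in disease. Monocytes/macrophages with Ccr2, a receptor of recruited monocytes, had more Irf7 and Rsad2 in 5 of 5 libraries. The other genes were mixed. Isg15 and Usp18 were higher with Ccr2 in 3 of 5 libraries, Ifit1, Ifit3 and Oasl2 in 2, and Ifit2, Mx1 and Cmpk2 in 1. In the Ccr2 cells Irf7 was 71.4 and 112 CPM in control and 85.8, 365 and 90.7 CPM in disease. Over all monocytes/macrophages, the Ccr2 cells included, it was 69.5 and 58 CPM in control and 62.7, 269 and 74.8 CPM in disease. The 2 values of control replicate 1 were thus close. Splits of this lineage by Lyve1 and Cxcl9 were mixed, with genes higher in 0 to 4 and 2 to 5 of 5 libraries. T cells with Ccr7, a receptor of naive and central memory cells, had less Isg15 in 5 of 5 libraries. They held 115 and 98.9 CPM in control and 80.5, 192 and 187 CPM in disease. Over all T cells Isg15 was 213 and 127 CPM in control and 103, 363 and 222 CPM in disease. Usp18 was higher with Ccr7 in 4 of 5 libraries, Oasl2 in 3, Ifit3 in 2 and the other genes in 0 or 1. Splits by Cd8a and Ifng in T cells and Postn in fibroblasts were mixed, with genes higher in 2 to 4, 0 to 4 and 1 to 4 libraries.

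Between the groups, Cmpk2 was the one gene of the 10 called with all 5 libraries in edgeR, and it was lower in disease. That is 1 of 10 in endothelium, near the 11.8% of all genes called lower there. In endothelium it stood at 102 and 83.6 CPM in control and 47.2, 45.8 and 43.5 CPM in disease. The groups did not overlap, and the 3 disease libraries were close together (45.5 CPM ± 1.86, SD, n = 3). The log2 fold change of disease over control was -1.09 (SE 0.12, adjusted p = 0.00341, edgeR), and lower Cmpk2 was called without any 1 library (adjusted p = 0.00588 to 0.0343, edgeR). In the same fit, of 12500 genes, 0.368% were higher. Removing the trend of each library's counts with the GC content of transcript starts, an alternative added after the data had been seen, left -0.57 (SE 0.15, adjusted p = 0.0634, edgeR), and the call was lost. The first 300 bases of the Cmpk2 transcript had 67.3% G and C, against a median of 60.7% over the tested genes and 68% over those called lower.

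Summed over all kept cells, Cmpk2 stood at 38.8 and 45.8 CPM in control and 23.3, 16.3 and 19.7 CPM in disease, again without overlap. It fell by 1.06 on the log2 scale (SE 0.15, adjusted p = 0.0215, edgeR), where 6.4% of genes were lower and 0.0309% higher. That call was lost without control replicate 1 (-1.14, adjusted p = 0.108), control replicate 2 (-0.98, 0.182) or disease replicate 5 (-1.04, 0.155), and with the GC trend removed (-0.59, adjusted p = 0.113). In sums over all cells, fewer cells of a type and less RNA a cell cannot be told apart.

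In the other lineages Cmpk2 was not called with all libraries. Fibroblasts held 25.8 and 23.5 CPM in control and 13.2, 19.4 and 11.2 CPM in disease, a log2 fold change of -0.80 (SE 0.25, adjusted p = 0.11, edgeR). Monocytes/macrophages held 12.6 and 15.4 CPM in control and 5.6, 8.72 and 6.18 CPM in disease, a change of -0.85 (SE 0.30, adjusted p = 0.196, edgeR). Neither pair of groups overlapped. Without disease replicate 4, lower Cmpk2 was called in both, at -1.07 (adjusted p = 0.00794, edgeR) and -1.20 (adjusted p = 0.045). In T cells it was -0.87 (SE 0.42, adjusted p = 0.407, edgeR) from 2 to 59 UMIs a library, and in mural cells -0.19 (SE 0.44, adjusted p = 0.877) with overlapping groups. Background rates of lower and higher genes were 11.7 and 0.317% in fibroblasts, 6.65 and 0.201% in monocytes/macrophages, 5.16 and 0.0102% in T cells, 7.31 and 0.223% in mural cells and 9.17 and 0.172% in B cells.

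The ratio of Cmpk2 to its neighbour Rsad2 was lower in disease in 3 of the 6 lineages. In endothelium there were 0.253 and 0.27 UMIs of Cmpk2 for each of Rsad2 in control and 0.193, 0.0866 and 0.167 in disease. In fibroblasts the ratio was 1.19 and 1.59 in control and 0.843, 0.364 and 0.778 in disease. In monocytes/macrophages it was 0.492 and 0.588 in control and 0.351, 0.152 and 0.286 in disease. All 3 disease libraries lay below both controls in each of these lineages, and disease replicate 4 was the lowest. In mural cells the groups overlapped, at 0.256 and 0.245 in control and 1.25, 0.205 and 0.25 in disease, from 10 to 34 UMIs of Cmpk2. In T cells they overlapped too, at 0.939 and 3 in control and 1, 0.224 and 0.348 in disease. B cells held 0 to 11 UMIs of Rsad2 a library, too few for a ratio. Rsad2 itself was not called in any fit of all 5 libraries; without disease replicate 4 it was called lower in mural cells (-1.48, adjusted p = 0.0269, edgeR).

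**Figure D4:**
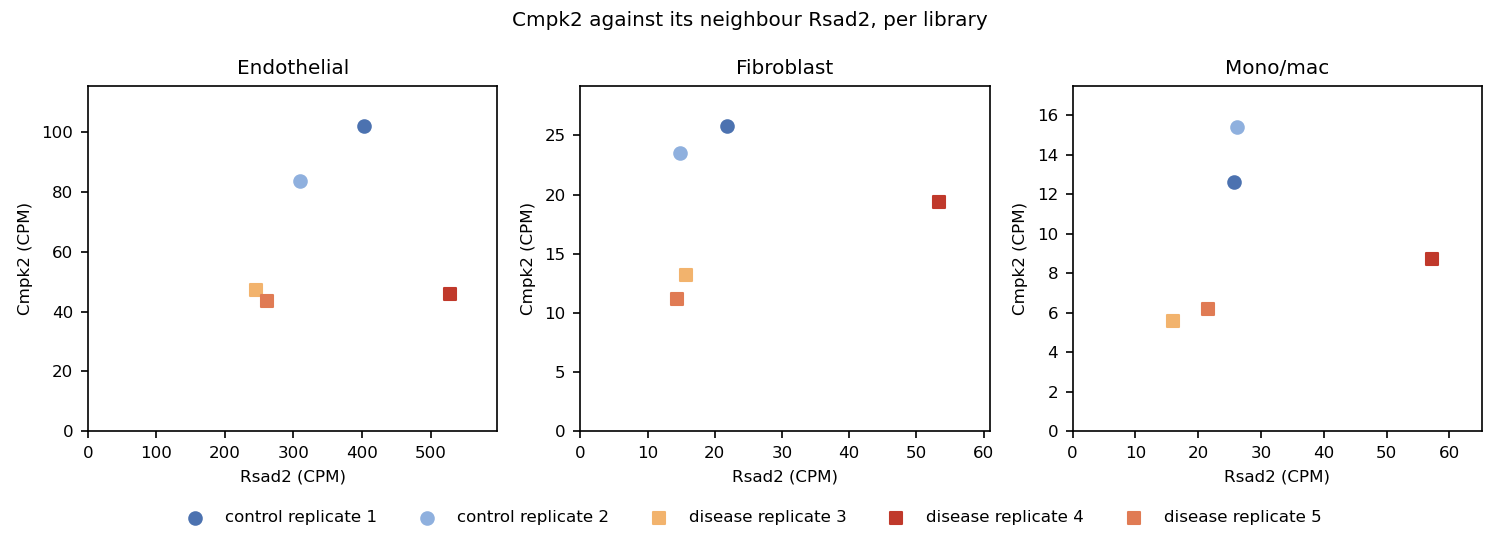
Cmpk2 against Rsad2 in CPM in endothelial cells, fibroblasts and monocytes/macrophages; each point is a library (circles control, squares disease). The disease libraries lie lower on the Cmpk2 axis than the controls in each panel, and disease replicate 4 has the highest Rsad2.

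Of the other 9 genes, 8 had their highest level in disease replicate 4 in 4 to 6 of the 6 tested lineages, and Mx1 in 3 of the 6. Mx1 was highest in control replicate 2 in monocytes/macrophages and B cells and in disease replicate 5 in mural cells. Isg15 in fibroblasts stood at 239 and 159 CPM in control and 153, 577 and 222 CPM in disease, so that the groups overlapped. Irf7 in monocytes/macrophages stood at 69.5 and 58 CPM in control and 62.7, 269 and 74.8 CPM in disease, also overlapping. Ifit1 in T cells stood at 4.09 and 2.76 CPM in control and 1.87, 48 and 11.4 CPM in disease. In endothelium 9 of the 10 genes had their highest level in disease replicate 4, as 31.9% of all genes did. It was 9 of 10 in fibroblasts (30% of all genes), 9 of the 9 tested in mural cells (26.8%), 8 of 10 in monocytes/macrophages (18.8%), 8 of 10 in T cells (27.8%) and 1 of the 2 tested in B cells (23.5%). Without overlap, Isg15 in monocytes/macrophages stood at 229 and 218 CPM in control and 234, 510 and 301 CPM in disease (0.77, SE 0.40, adjusted p = 0.361, edgeR). In disease replicate 4 T cells made up 23.3% of the kept cells, and cardiomyocyte genes in its endothelial gate were at 775 CPM against 1080 to 1124 CPM in the other libraries. The part of either in the levels was not tested.

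None of the genes but Cmpk2 passed an adjusted p of 0.05 in edgeR in any of the 7 fits of all 5 libraries (all kept cells and 6 lineages). At an unadjusted p of 0.05, Cmpk2 passed in 4 fits (all kept cells, endothelium, fibroblasts and monocytes/macrophages) and Ifit1 in T cells, and no other of the 10 in any fit. Of all genes 16.1% passed it in all kept cells, 24.7% in endothelium, 27.3% in fibroblasts, 19.7% in mural cells, 18.1% in monocytes/macrophages, 15% in T and 22.4% in B cells, so these counts are at or below the background. DESeq2 called Cmpk2 in all kept cells and endothelium and 0 of the 10 genes elsewhere. The largest estimates were for Ifit1 in T cells (2.57, SE 1.06, adjusted p = 0.304, edgeR), Ifit3 in T cells (1.48, SE 0.73, adjusted p = 0.425), Ifit2 in monocytes/macrophages (1.26, SE 0.84, adjusted p = 0.456) and Irf7 in monocytes/macrophages (1.25, SE 0.71, adjusted p = 0.393). The SEs are a large part of the estimates, and a p that misses the threshold does not show equal levels. When every gene with at least 1 count was tested, Ifit1 was called higher in T cells (2.62, adjusted p = 0.000263, edgeR) and Ifit3 in mural cells (1.05, adjusted p = 0.019).

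The median log2 fold change over the genes tested was 0.35 in all kept cells, 0.13 in endothelium, 0.61 in fibroblasts, 0.44 in mural cells, 0.61 in monocytes/macrophages, 0.66 in T cells (10 genes each, 9 in mural cells) and 0.64 over the 2 genes tested in B cells. The medians of all genes lay between -0.00 and 0.04. Without disease replicate 4 the members' medians were -0.15, -0.19, -0.11, -0.55, -0.18, 0.25 and 0.53 in the same order (over 7 genes in T and 1 in B cells), so 5 of the 7 medians turned negative. In endothelium 0 of the 9 genes then tested had a positive estimate. With the GC trend removed the members' medians were 0.13, 0.04, 0.57, 0.33, 0.44, 0.43 and 0.45 in the same order, and those of all genes 0.04, 0.11, 0.09, 0.11, 0.02, 0.06 and 0.09, so in endothelium the members' median lay below that of all genes.

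**Figure D5:**
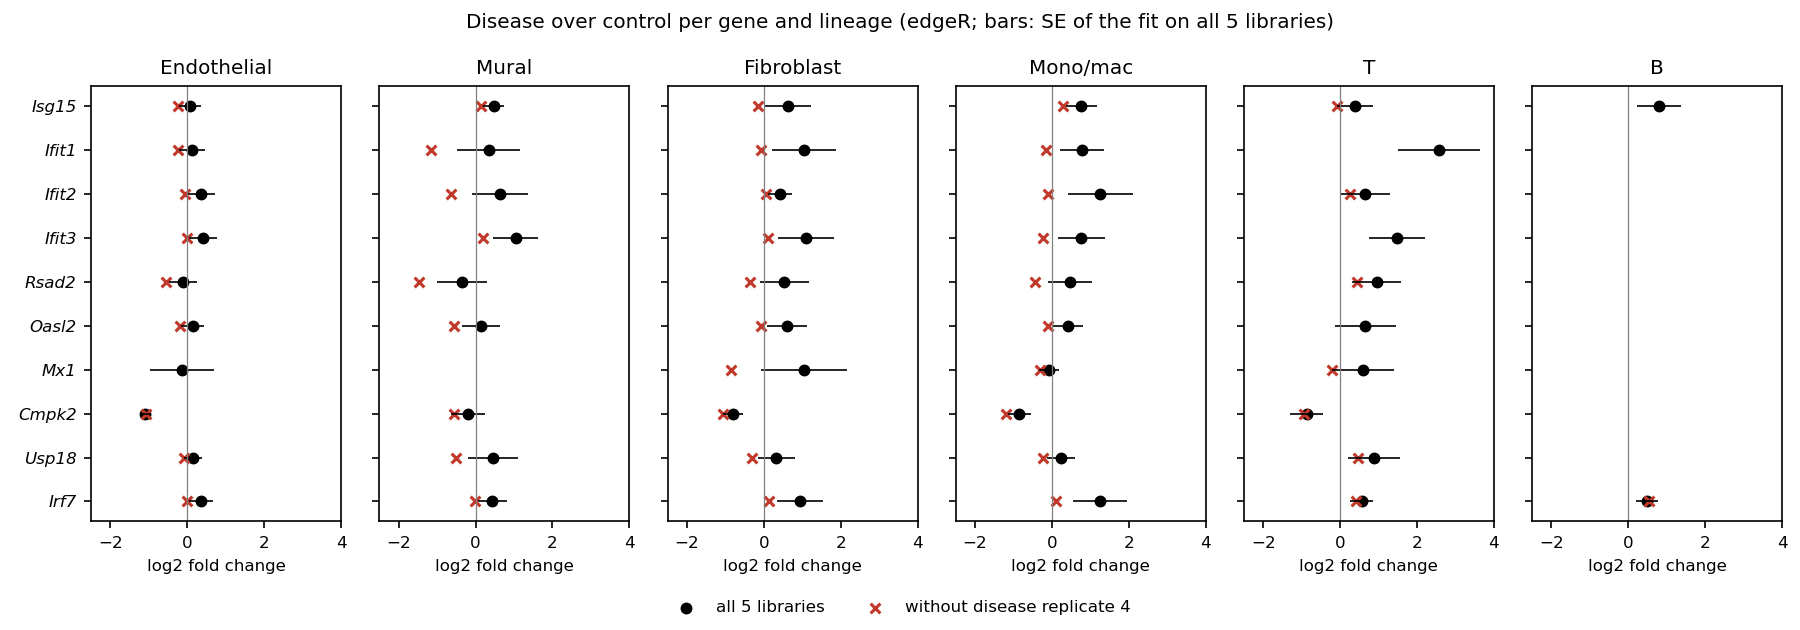
Log2 fold change of disease over control for each gene in each tested lineage; black points with SE bars are from all 5 libraries, red crosses from the fit without disease replicate 4, and a gene without a point was not tested. Cmpk2 lies below 0 in each panel that has it, and most crosses lie left of their black points.

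The size of the change was compared between lineages for 3 pairs of lineages, with the library as a block. None of the 10 genes passed in edgeR, against 0.0738% of all genes between monocytes/macrophages and endothelium, 0.0901% between monocytes/macrophages and fibroblasts and 0.17% between fibroblasts and endothelium. At an unadjusted p of 0.05 there were 1, 0 and 7 of 10 in these pairs, beside 788 of 13547, 854 of 14421 and 2338 of 14084 of all genes; DESeq2 was not run for this test. Between fibroblasts and endothelium the 10 differences ran from 0.23 to 1.03 with a median of 0.56, each toward fibroblasts, where the median of all genes was 0.16. Rsad2 differed there by 0.66 (SE 0.22, adjusted p = 0.209, edgeR) and Oasl2 by 0.51 (SE 0.18, adjusted p = 0.21). In the separate group fits the median change of the genes was 0.61 in fibroblasts and 0.13 in endothelium. Without disease replicate 4 these medians were -0.11 and -0.19, so the gap between the 2 lineages rested largely on that library. The differences of this test without that library are not given here.

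The wider pathway was read from lists of genes. Of 17 type I interferon ligands 0 had enough counts for a test, and 8 had a UMI in any cell. Ifnb1 had 38 UMIs over the 5 libraries, of which 32 were in the monocyte/macrophage gate and 28 in disease replicate 4. All 17 ligands together had 8 and 4 UMIs in control and 12, 38 and 14 in disease. These counts are not scaled. The libraries held 51972451 and 23742100 kept UMIs in control and 26754546, 49947549 and 36713597 in disease. Their monocyte/macrophage gates held 1339 and 506 cells in control and 592, 1610 and 762 in disease. Plasmacytoid dendritic cells, known for interferon secretion, numbered 2 in all.

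Both chains of the receptor were lower in disease endothelium. Ifnar2 stood at 201 and 184 CPM in control and 57.8, 41.6 and 49.5 CPM in disease endothelium, with the groups far apart. It was lower in all 7 fits, from -1.60 (SE 0.20, adjusted p = 0.00556, edgeR) in monocytes/macrophages to -2.26 (SE 0.35, adjusted p = 0.0144) in T cells. With the GC trend removed it was -1.47 (adjusted p = 0.00222, edgeR) in endothelium and was called in every fit but B cells (-1.45, adjusted p = 0.0576). In all kept cells (-1.93) the call was lost without control replicate 1 (-1.80) or 2 (-2.05; adjusted p = 0.056 for each, edgeR) or disease replicate 5 (-1.92, 0.0682). In monocytes/macrophages it was lost without control replicate 1 (-1.43, adjusted p = 0.0571, edgeR) or disease replicate 5 (-1.63, 0.0573). In T cells it was lost without control replicate 1 (-1.83, adjusted p = 0.0849, edgeR), disease replicate 4 (-2.15, 0.0676) or 5 (-2.11, 0.162). In B cells (-2.16) it was lost without control replicate 1 (-1.95, adjusted p = 0.0609, edgeR) or 2 (-2.35, 0.0727) or disease replicate 5 (-2.02, 0.0509). It was kept in endothelial cells, fibroblasts and mural cells without any 1 library. Ifnar1, the other chain, stood at 52.3 and 53.3 CPM in control and 31.7, 29 and 29.8 CPM in disease endothelium (-0.87, SE 0.10, adjusted p = 0.00402, edgeR). It was also called in fibroblasts (-0.74, adjusted p = 0.0113, edgeR) and B cells (-1.34, adjusted p = 0.0463). The fibroblast call was lost without control replicate 1 (-0.63, adjusted p = 0.0742, edgeR) or disease replicate 5 (-0.74, 0.0621). The B-cell call was lost without any 1 library (-1.06 to -1.50, adjusted p = 0.0653 to 0.382, edgeR), with the GC trend removed (-1.20, 0.0861) and by DESeq2 (-1.33, 0.167).

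Of the 10 receptor and signalling genes, 3 were called lower in all kept cells, 4 in endothelium, 5 in fibroblasts, 1 in mural cells, 1 in monocytes/macrophages, 3 in T cells and 4 in B cells, and 0 higher in any fit (edgeR). Of all genes, 6.4, 11.8, 11.7, 7.31, 6.65, 5.16 and 9.17% were lower in these fits, and at most 0.368% were higher. Besides the receptor these were Socs1 and Socs3, which restrain the receptor's kinases, and Jak1. DESeq2 called 4, 5, 5, 1, 3, 4 and 3 lower in the same order, and 10.4, 13.2, 14.2, 5, 7.63, 5.17 and 7.49% of all genes. Several of the edgeR calls were lost without 1 library. With the GC trend removed 1, 3, 3, 1, 1, 2 and 0 were lower in that order, and 3.53, 7.87, 7.01, 5.09, 4.07, 2.24 and 4.13% of all genes. Among them Socs3 (from -1.09 to -0.57, adjusted p = 0.184, edgeR) and Socs1 (from -1.65 to -1.14, 0.139) were lost in all kept cells, and Socs1 (from -1.61 to -1.04, 0.0786) and Jak1 (from -0.82 to -0.27, 0.532) in fibroblasts. Socs1 in T cells stood at 101 and 96.6 CPM in control and 3.75, 6.53 and 6.71 CPM in disease, from 2 to 69 UMIs a library in disease, so the groups were far apart. The difference was -4.05 (SE 0.29, adjusted p = 0.00361, edgeR) and was called with the GC trend removed (-3.40, 0.00433); the call was lost without disease replicate 5 (-4.11, 0.0744). In B cells Socs1 was lower by edgeR (-2.82, SE 0.64, adjusted p = 0.0373), a call lost with the GC trend removed (-2.10, 0.0926) and without control replicate 1 (-3.13, 0.0856) or 2 (-2.15, 0.462) or disease replicate 3 (-2.56, 0.0589) or 4 (-2.29, 0.0856). Socs3 in endothelium stood at 128 and 106 CPM in control and 57.1, 40.5 and 50.8 CPM in disease (-1.30, SE 0.18, adjusted p = 0.00715, edgeR); the call was lost without control replicate 1 (-1.16, 0.0502) or disease replicate 5 (-1.31, 0.0571). Jak1 in endothelium stood at 181 and 154 CPM in control and 104, 111 and 98.6 CPM in disease (-0.74, SE 0.11, adjusted p = 0.0108, edgeR), a call lost with the GC trend removed (-0.21, adjusted p = 0.455), without control replicate 1 (-0.62, 0.0606) and without disease replicate 5 (-0.69, 0.065). The first 300 transcript bases were 70.7% G and C for Ifnar2, 72.3% for Socs1, 69.3% for Socs3 and 67.3% for Jak1, against a median of 60.7% over the genes tested in endothelium. Ifnar1, at 61%, was near that median, and its endothelial call was kept with the GC trend removed (-0.71, adjusted p = 0.0109, edgeR). Stat2 and Irf9, which belong to the activated complex, were not called in any fit.

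Other type I response genes were counted in the same fits, with no test of them as a group. In all kept cells 38 of 40 listed genes were tested and 0 called by edgeR, 1 passing an unadjusted p of 0.05, where 2610 of all 16195 genes did. Of the 38 estimates 35 were positive, with a median of 0.43, where 8378 of all genes were positive. Disease replicate 4 was the highest library for 33 of the 38 and for 4056 of all genes. DESeq2 called 0 there and 1, lower, in endothelium. In endothelium the median was 0.27 over 37 genes and in fibroblasts 0.67 over 35. Without disease replicate 4 these 3 medians were 0.10, 0.04 and 0.19. Genes more often linked to interferon gamma (16 listed, such as Cxcl9 and the guanylate-binding proteins) had medians of 0.88 in all kept cells, 0.57 in endothelium, 1.64 in fibroblasts and 1.37 in monocytes/macrophages, with 0 called by edgeR in these 4 fits and 0, 1, 2 and 1 passing an unadjusted p of 0.05, beside the 16.1, 24.7, 27.3 and 18.1% of all genes given above; DESeq2 called 1, higher, in monocytes/macrophages. Without disease replicate 4 these medians were 0.12, -0.09, 0.62 and 0.52. Ifit3b, the copy of Ifit3, stood at 47.8 and 46.6 CPM in control and 40.8, 86.1 and 44.9 CPM in disease endothelium, and was not called (0.20, SE 0.33, adjusted p = 0.738, edgeR), nor in all kept cells (0.41, SE 0.41, adjusted p = 0.638). In B cells Irf8 was lower (-1.75, SE 0.24, adjusted p = 0.00735, edgeR), as was Irf5 from the sensors of nucleic acid (-1.42, SE 0.26, adjusted p = 0.0177). The Irf8 call was lost without control replicate 2 (-1.74, adjusted p = 0.0805, edgeR) and the Irf5 call without control replicate 1 (-1.32, 0.0999), control replicate 2 (-1.50, 0.137) or disease replicate 5 (-1.41, 0.07). No other sensor was called, of 8 to 18 tested a fit.

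The genes whose levels ran most like the mean of the 10 were found over 30 sums, 6 lineages in 5 libraries, among 10607 genes. Rtp4, a chaperone gene of the interferon response, came first (Spearman's rho 0.954), followed by Gbp7 (0.947), Iigp1 (0.943), Phf11d (0.942), Bst2, which encodes tetherin (0.936), Ube2l6, the conjugating enzyme for the Isg15 protein (0.932), Xaf1 (0.932), Stat2 (0.929), Tgtp2 (0.928) and Ifit3b (0.923). The sums of a library share its depth and those of a lineage its cells, so these values are a description without a test. Among the 10 themselves the correlation over the same sums was highest for Ifit2 with Ifit3 (0.93) and lowest for Mx1 with Cmpk2 (-0.37).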

How the data were processed

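Per the labels, 5 libraries of pooled mouse hearts were made with 10x Genomics 5-prime chemistry. Per the file headers, reads were counted by Cell Ranger 3.1.0. The submitters' processing notes name Cell Ranger 3, Seurat 3 and the builds GRCh38 and mm10. The values are whole-number UMI counts per gene and cell, as the authors deposited them, neither normalized nor scaled by length. Cells with at least 500 UMIs, 200 genes and at most 10% mitochondrial UMIs were kept. A cell entered a lineage with at least 3 UMIs of at least 2 of its markers and 3 times those of every other lineage. Doublets were left in, apart from what the gate removed; Scrublet (scanpy 1.11.5) was an alternative and marked only 0.0716% of control replicate 2, where it had not worked.

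UMIs were summed per library and lineage and tested with edgeR 4.0.16 (quasi-likelihood F test, TMM, filterByExpr, R 4.3.3, limma 3.58.1), with Benjamini-Hochberg adjustment over all genes tested and a threshold of 0.05. DESeq2 1.42.0 was an alternative, as were plain library totals, every gene with at least 1 count, other gates, 25% mitochondrial UMIs, and leaving out each library. Removing the GC trend of the first 300 transcript bases, the splits by 1 gene, and leaving out libraries for shares were added after the data had been seen. The scripts were tested on simulated data. The 10 genes and all gene lists were chosen with earlier results of these data known. Genes named beyond the 10 are those of the receptor and signalling, sensing and interferon gamma lists called in a fit (at most 4 a direction), with Ifnar1, Ifnar2, Stat2, Irf9 and Ifit3b always reported; 1 further gene of that rule is not reported here. The most alike genes were taken among those with at least 10 CPM in at least 5 sums. Intervals are 95% Wilson intervals and cover counting error only; 3 counts set the limit for a count of 0.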

Additional observations from a re-analysis of the deposited data

How the results depend on the processing

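Of 1638 values recomputed under an alternative, 1551 kept their direction and side of the threshold or moved little, 54 moved, 10 newly passed the threshold, 23 no longer passed it, and 0 called values changed sign. Of 765 estimates for the 10 genes between the groups, 51 passed in neither fit and changed sign. Genes called in all kept cells were 1041, against 1743 with DESeq2 and 575 with the GC trend removed. Removing the GC trend also gave 491 against 785 in monocytes/macrophages, 220 against 505 in T and 246 against 488 in B cells. It gave 0 of the 10 genes in all kept cells and endothelium. Testing every gene with at least 1 count gave 877 against 506 in mural cells, 1314 in monocytes/macrophages, 1050 in T and 999 in B cells, with 1 of the 10 genes in each of mural and T cells. In the comparison of lineages, genes of the 10 lower in fibroblasts were 1 with plain totals, and those lower in monocytes/macrophages 1 with a stricter gate. The disease minus control share of cells with at least 3 genes was 0.807 percentage points in monocytes/macrophages (-0.815 without disease replicate 4) and 0 in B cells. It was 1.97 in endothelium, 2.45 in fibroblasts and 3.69 in mural cells. Leaving out 1 library brought these as low as -1.83, -0.03 and -2.41. In T cells it was 0.657, and 0.257 to 1.08 on leaving out 1 library. With at least 2 genes it was 3.92 in monocytes/macrophages, where disease replicate 4 stood at 18.1% and the other disease libraries at 6.54 and 6.78%. In B cells it was then 0.333, and at 2000 UMIs it was -0.104 there.

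Leaving out each library gave 121 to 1256 genes in all kept cells, 765 to 1530 in endothelium, 721 to 1763 in fibroblasts, 196 to 605 in mural cells, 200 to 1057 in monocytes/macrophages, 0 to 413 in T (0 without disease replicate 5) and 59 to 518 in B cells. Of the 10 genes, 0 to 1 were then called in all kept cells, fibroblasts, mural cells and monocytes/macrophages. Their median log2 fold change ran from -0.15 to 0.54 in all kept cells, -0.55 to 0.72 in mural cells and -0.18 to 0.89 in monocytes/macrophages, lowest without disease replicate 4. Between lineages, genes of the 10 lower than in the other lineages numbered 0 to 1 in endothelium, 1 to 2 in fibroblasts and 1 to 2 in monocytes/macrophages. Beyond the alternatives' own construction, the cause was not tested. No paired analysis was possible because the groups share no replicate numbers.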
